A study of Homo sapiens with 4 samples.

Results

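The enzymes described here are those that cut, unwind or prevent RNA-DNA hybrids, and their transcripts were measured by RNA sequencing in HEK293T cells. Members were chosen by symbol (RNASEH1, RNASEH2A, RNASEH2B, RNASEH2C, RTEL1, PIF1, TOP1, TOP3B and SAMHD1), and all 9 were found among the 38972 rows of the deposited table. HEK293T is an established human embryonic kidney cell line that carries the SV40 large T antigen. The labels give 2 libraries with RNase H1 overexpressed (oeRNH1) and 2 with Flag, an epitope tag, overexpressed (oeFlag). No other treatment, time or clone is named, and nothing says that replicates came from separate cultures, so the spread behind each p-value is that between these libraries and may be technical. The series maps R-loops, and the only comparison in its design asks which transcripts differ with RNase H1 overexpressed in place of Flag.

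An R-loop forms when RNA pairs with one strand of the DNA duplex and leaves the other strand unpaired. RNase H enzymes degrade the RNA of such a hybrid, helicases such as RTEL1 and PIF1 unwind it or the G-quadruplexes that form beside it, and topoisomerases relax the negative supercoils behind the polymerase in which hybrids form. RNase H1 acts in the nucleus and in mitochondria, whereas RNase H2, a complex of a catalytic and a pair of auxiliary subunits, also removes single ribonucleotides that polymerases leave in DNA. SAMHD1 breaks down deoxynucleoside triphosphates, and mutations in its gene or in those of the RNase H2 subunits cause Aicardi-Goutières syndrome, an inflammatory disease with raised interferon.

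Values are TPM, the length-scaled share of each transcript within its library, so levels can be compared between genes. A lower share cannot be told apart from a rise of other transcripts. The amount of RNA per cell and the number of cells do not show in TPM. The 4 libraries had values above 0 for 24585 and 24568 genes with the oeRNH1 label and for 23556 and 23621 with the oeFlag label. The sequencing depth behind these values is unknown, because TPM does not keep it, and counting intervals could not be given. Log2 values correlated at 0.989 or more within groups and at 0.981 to 0.984 across groups. Of 6 genes that HEK293T cells are known for, PAX2, IRS4, NEFM, LIN28B, VIM and GATA2, all were above 1 TPM in every library. IRS4, NEFM and LIN28B were called lower and VIM and GATA2 higher. IRS4 was at 106.57 and 99.86 TPM in oeRNH1 libraries, against 216.94 and 217.96 TPM in oeFlag libraries. Summed levels were 1208 to 1230 TPM in oeRNH1 and 1239 to 1258 TPM in oeFlag libraries. Most of each sum was VIM, at 979.02 and 964.63 TPM in oeRNH1 libraries, against 867.46 and 887.65 TPM in oeFlag libraries. Of 12 markers of blood, fibroblasts, liver, keratinocytes and endothelium, 8 stayed under 1 TPM in every library. Those above it in some library included COL1A1, ALB and LUM, and the sums over the list were 20.9 to 25.2 TPM in oeRNH1 and 25.2 TPM in both oeFlag libraries. Whether any of these differences bears on the enzymes was not tested.

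The gene named in the labels comes first. RNASEH1 lies on the minus strand of chromosome 2 (3544793 to 3558616, positions from GENCODE release 29, build GRCh38). Its level was 29.93 and 29.67 TPM in the oeRNH1 libraries, against 32.09 and 32.8 TPM in the oeFlag libraries. Both oeRNH1 libraries lay below both oeFlag libraries, so this row did not show the overexpression in the labels. Its log2 fold change was -0.12 with a 95% interval of -0.27 to 0.04, which did not pass limma (adjusted p = 0.260). The labels do not give the sequence of the construct, and whether its transcripts would be counted in this row was not tested. Groups are therefore called by their labels, and directions are those of the libraries labelled oeRNH1 relative to those labelled oeFlag.

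Promoter windows of 3 members are shown because RNASEH1 shares its window with a transcript that fell, and because RTEL1 and PIF1 are the members that fell. Sequences are from RefSeq on GRCh38.p14, from 250 bases before to 50 after the annotated start, 5′ to 3′ on the strand of the gene, and all 9 members had an entry. The RNASEH1 window is chr2:3558284-3558583 (minus strand), the RTEL1 window chr20:63657560-63657859 (plus strand) and the PIF1 window chr15:64825598-64825897 (minus strand). Capitals mark matches, on either strand, to any of 6 motifs: the GC box GGGCGG, the ETS core CCGGAAG, the E-box CACGTG, the AP-1 site TGANTCA, the E2F site TTTGGCGC and the CCAAT box CCAAT.
RNASEH1: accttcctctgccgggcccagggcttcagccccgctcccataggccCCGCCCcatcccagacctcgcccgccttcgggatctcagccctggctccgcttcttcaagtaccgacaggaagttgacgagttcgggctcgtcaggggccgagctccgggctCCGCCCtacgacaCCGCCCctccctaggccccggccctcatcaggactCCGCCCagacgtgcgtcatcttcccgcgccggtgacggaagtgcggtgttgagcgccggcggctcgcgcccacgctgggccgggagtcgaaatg
RTEL1: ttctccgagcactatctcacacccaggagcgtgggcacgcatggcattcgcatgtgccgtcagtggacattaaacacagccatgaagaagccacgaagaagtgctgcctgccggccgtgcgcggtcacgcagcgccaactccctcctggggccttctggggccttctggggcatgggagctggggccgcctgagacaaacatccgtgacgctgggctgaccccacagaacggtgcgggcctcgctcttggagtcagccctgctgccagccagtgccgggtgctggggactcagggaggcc
PIF1: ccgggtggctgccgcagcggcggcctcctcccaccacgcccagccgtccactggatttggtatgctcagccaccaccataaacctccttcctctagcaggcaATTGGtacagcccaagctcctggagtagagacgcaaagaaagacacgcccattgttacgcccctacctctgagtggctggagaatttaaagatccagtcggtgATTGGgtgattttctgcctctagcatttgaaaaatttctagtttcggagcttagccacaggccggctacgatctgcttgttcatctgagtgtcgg
The RNASEH1 window held 4 GC boxes and no other match, and 44.95% of all 35116 windows of this length held at least 1 GC box. The PIF1 window held 2 CCAAT boxes, a motif found in 34.6% of windows, and the RTEL1 window held none of the 6 motifs. No matches overlapped one another in these windows. The GC content was 70.3% for RNASEH1, 65.3% for RTEL1 and 54.7% for PIF1, against a median of 58.7% over all windows.

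Across the enzymes, TOP1 was the most abundant transcript and RTEL1 the least. In the oeRNH1 libraries the order of mean levels was TOP1, RNASEH2A, RNASEH2B, TOP3B, RNASEH2C, RNASEH1, SAMHD1, PIF1 and RTEL1, from 171 down to 5.72 TPM. In the oeFlag libraries it was TOP1, RNASEH2A, RNASEH2B, TOP3B, RNASEH1, RNASEH2C, SAMHD1, PIF1 and RTEL1, from 148 down to 9.185 TPM. Neighbours in these orders did not overlap between their libraries, except RNASEH1 with SAMHD1 in the oeRNH1 group and RNASEH2C with SAMHD1 in the oeFlag group. RNASEH2C thus stood above RNASEH1 in both oeRNH1 libraries and below it in both oeFlag libraries.

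**Figure D1:**
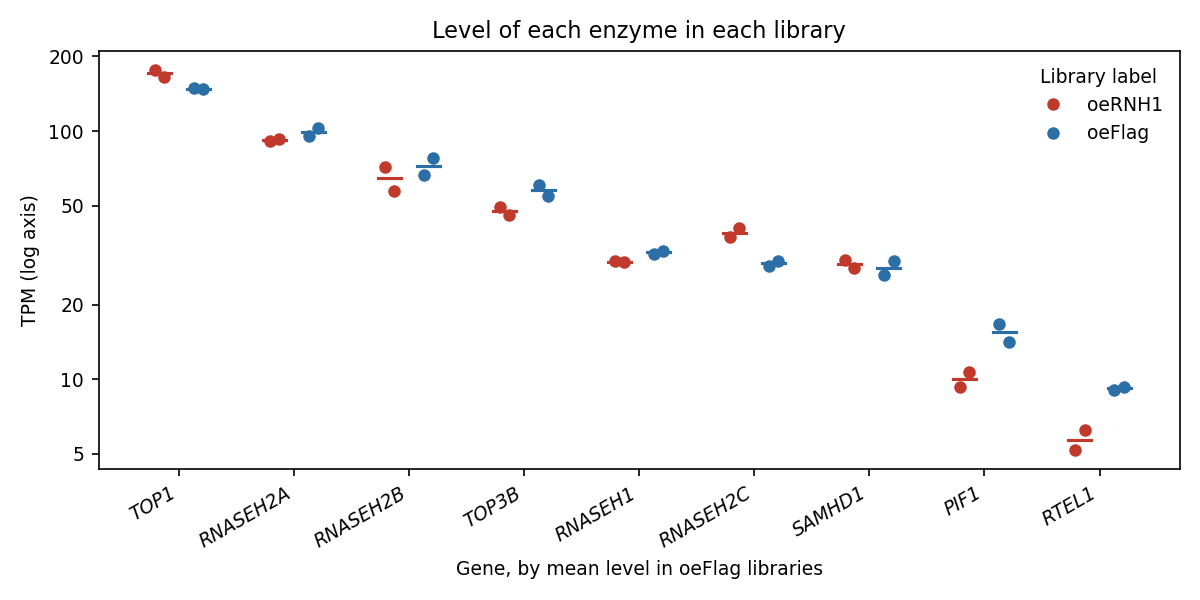
TPM of the 9 enzymes on a log axis, with a point for each library, a bar at the group mean, oeRNH1 in red and oeFlag in blue. The groups stand apart most for PIF1 and RTEL1, which are lower in oeRNH1 libraries, and for RNASEH2C, which is higher.

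RNASEH2C rose, RTEL1 and PIF1 fell, and the other 6 enzymes did not pass the test. All 9 had a mean of at least 1 TPM and were tested with limma on log2(TPM + 1), with p adjusted over 15651 genes and a call at an adjusted p under 0.05. Of all tested genes 11.8% were called, 6.30% higher and 5.54% lower, beside 1 of 9 enzymes higher and 2 of 9 lower. The median log2 fold change was -0.12 over the enzymes and 0.00 over all tested genes. Groups did not overlap for 7 of the 9 enzymes, against 60.7% of all tested genes, so that count is near the background. Each of the 3 calls was lost when any 1 library was left out. That fit assumes that the lone library varies like the other group. The calls were also lost without a filter on low values, where 0 of 28206 genes were called. Without an intensity trend in the variances they were lost too, and 1 of 15651 genes was called. Almost no gene kept a call in any of these fits, so the loss is not particular to these enzymes.

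**Figure D2:**
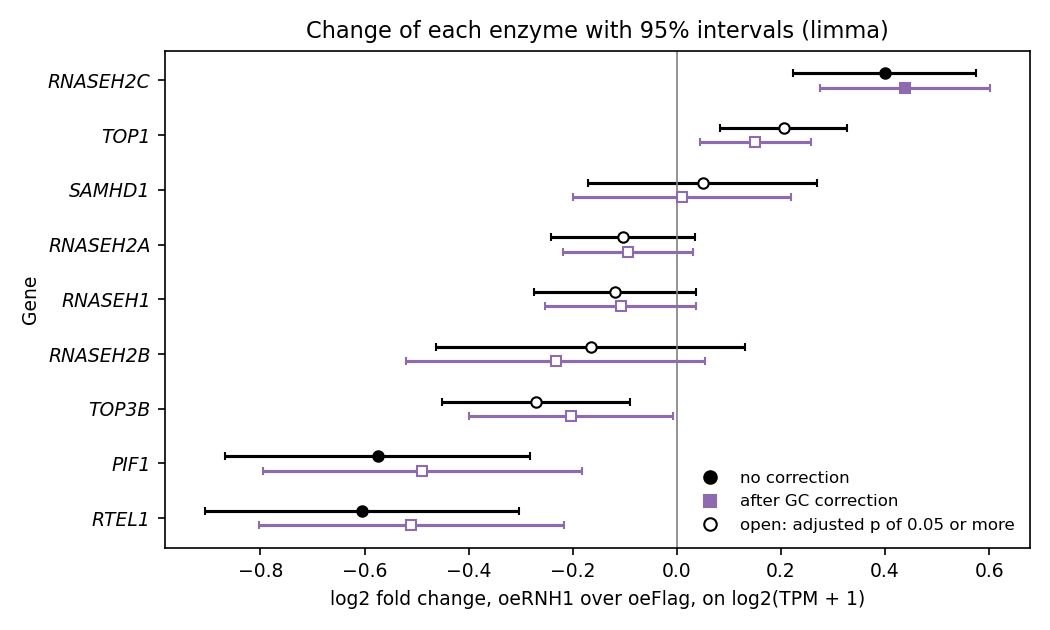
Log2 fold change of each enzyme, oeRNH1 over oeFlag, on the log2(TPM + 1) scale with 95% intervals from limma, without correction (black circles) and after correction for GC content (purple squares). Filled symbols have an adjusted p under 0.05, which RNASEH2C has in both fits and PIF1 and RTEL1 without correction only.

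Among the genes of RNase H1 and of the RNase H2 subunits, only RNASEH2C was called. RNASEH2C, which encodes an auxiliary subunit of RNase H2, was at 37.26 and 40.64 TPM in oeRNH1 libraries, against 28.71 and 29.84 TPM in oeFlag libraries. Its groups did not overlap, as for 60.7% of all tested genes, so all 4 pairings of an oeRNH1 with an oeFlag library were higher in oeRNH1. The log2 fold change was 0.40 ± 0.07 (SE, limma adjusted p = 0.0274), with group means of 39.0 ± 2.39 and 29.3 ± 0.799 TPM for oeRNH1 and oeFlag (SD, n = 2 each).

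RNASEH2A, the catalytic subunit, was at 91.29 and 93.19 TPM in oeRNH1 libraries, against 95.42 and 103.03 TPM in oeFlag libraries. The groups stood apart by less than the gap between the oeFlag libraries, and the log2 fold change of -0.10 ± 0.06 did not pass (limma adjusted p = 0.270). RNASEH2B, the other auxiliary subunit, was at 71.41 and 57.38 TPM in oeRNH1 libraries, against 66.38 and 77.94 TPM in oeFlag libraries. Its groups overlapped, and its interval of -0.46 to 0.13 was the widest of the complex (limma adjusted p = 0.400).

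Within each library, the log2 ratio of RNASEH2C to the mean of RNASEH2A and RNASEH2B was -1.12 and -0.85 in oeRNH1, against -1.47 and -1.59 in oeFlag. The ratio, which does not depend on scaling between libraries, was higher by 0.55 without overlap of the groups (two-sided exact permutation p = 0.333, the smallest that 2 against 2 libraries allow). The log2 ratio of RNASEH2A to RNASEH2B was 0.35 and 0.70 in oeRNH1, against 0.52 and 0.40 in oeFlag (exact permutation p = 1). RNASEH2C was the lowest of the 3 subunits in each library.

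The rows that overlap these nuclease genes bear on their values, since no use of strand is given in the sources used here and reads of overlapping transcripts may then be split between rows. RNASEH2C (chromosome 11, 65714005 to 65720947, minus strand) shares 28.2% of its exon bases with KAT5, an acetyltransferase gene on the opposite strand. KAT5 was at 53.97 and 52.6 TPM in oeRNH1 libraries, against 59.34 and 60.53 TPM in oeFlag libraries (log2 -0.17 ± 0.05, SE, limma adjusted p = 0.0988). The direction was opposite to that of RNASEH2C, whose level came to 69.0% and 77.3% of that of KAT5 in oeRNH1 libraries, against 48.4% and 49.3% in oeFlag libraries.

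RNASEH2A shares 30.8% of its exon bases with THSD8 on the same strand, a row at 0.86 and 0.91 TPM in oeRNH1 libraries, against 1.12 and 1.06 TPM in oeFlag libraries. HOOK2, which overlaps it with 0 shared exon bases, was at 21.24 and 20.61 TPM in oeRNH1 libraries, against 24.43 and 21.17 TPM in oeFlag libraries. RNASEH2B shares 1.07% of its exon bases with RNASEH2B-AS1, which was at 0.71 and 0.14 TPM in oeRNH1 libraries, against 0.83 and 0.15 TPM in oeFlag libraries. The THSD8 and RNASEH2B-AS1 rows thus lay far below the enzymes they overlap.

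RNASEH1-DT, the noncoding transcript that starts on the other strand beside RNASEH1, was at 7.68 and 7.99 TPM in oeRNH1 libraries, against 12.13 and 10.45 TPM in oeFlag libraries. It fell by 0.47 on the log2 scale (SE 0.11, limma adjusted p = 0.0471), a call lost after GC correction (-0.45, adjusted p = 0.0589) and held in 6 of 16 other settings. The RefSeq starts of the pair lie 53 bases apart, and 152 bases and 3 GC boxes of the RNASEH1 window printed above also belong to the window of RNASEH1-DT. The gene models share 4.36% of the exon bases of RNASEH1, and RNASEH1-DT came to 25.7% and 26.9% of the TPM of RNASEH1 in oeRNH1 libraries, against 37.8% and 31.9% in oeFlag libraries (exact permutation p = 0.333, the smallest possible). The separate gene RNH1, whose symbol resembles the sample titles, encodes an inhibitor of other ribonucleases and was at 51.54 and 58.32 TPM in oeRNH1 libraries, against 56.88 and 54.64 TPM in oeFlag libraries (limma adjusted p = 0.857).

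The helicases RTEL1 and PIF1 both fell. RTEL1, which unwinds telomere loops and G-quadruplexes, lies on chromosome 20 (63657810 to 63696253, plus strand) and was at 5.18 and 6.25 TPM in oeRNH1 libraries, against 9.08 and 9.29 TPM in oeFlag libraries. Every pairing of libraries gave a lower level in oeRNH1, with log2 ratios of TPM of -0.84 to -0.54. On the log2(TPM + 1) scale it fell by 0.61 (SE 0.12, limma adjusted p = 0.0359), with an interval of -0.91 to -0.30.

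PIF1, a helicase of G-quadruplexes, telomeres and mitochondrial DNA, lies on chromosome 15 (64815632 to 64825668, minus strand) and was at 9.32 and 10.71 TPM in oeRNH1 libraries, against 16.75 and 14.11 TPM in oeFlag libraries. The highest oeRNH1 library stayed below the lowest oeFlag library. PIF1 fell by 0.58 on the log2(TPM + 1) scale (SE 0.12, limma adjusted p = 0.0372), with an interval of -0.87 to -0.28. Of the promoter windows printed above, the CCAAT boxes are in that of PIF1 and not in that of RTEL1. Among the windows not printed, those of RNASEH2B and SAMHD1 held 2 CCAAT boxes each and that of RNASEH2A 1. None of these genes was called. The windows of RNASEH2C, TOP1 and TOP3B held no CCAAT box.

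The readthrough row RTEL1-TNFRSF6B, which shares 70.2% of the exon bases of RTEL1 on the same strand, was at 1.28 and 1.11 TPM in oeRNH1 libraries, against 2.18 and 2.24 TPM in oeFlag libraries. It did not pass (log2 -0.55 ± 0.18, limma adjusted p = 0.101), and it came to 24.7% and 17.8% of the TPM of RTEL1 in oeRNH1 libraries, against 24.0% and 24.1% in oeFlag libraries. TNFRSF6B itself was at 0.24 and 0.2 TPM in oeRNH1 libraries and was listed at 0 in both oeFlag libraries. How reads were divided between these rows is not given in the sources used here. With both rows summed, a setting chosen after seeing the data, the log2 fold change was -0.65 (limma adjusted p = 0.0228). No row of the table overlaps PIF1.

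The topoisomerases TOP1 and TOP3B leaned in opposite directions, and neither passed. TOP1, which nicks and relaxes DNA ahead of and behind the polymerase, was at 176.55 and 165.19 TPM in oeRNH1 libraries, against 148.72 and 147.34 TPM in oeFlag libraries. The groups did not overlap, and the log2 fold change of 0.20 ± 0.05 missed the threshold narrowly (limma adjusted p = 0.0503). TOP3B, which acts on single-stranded DNA and on RNA, was at 49.39 and 45.93 TPM in oeRNH1 libraries, against 60.62 and 54.8 TPM in oeFlag libraries. Its log2 fold change was -0.27 ± 0.07, with an interval of -0.45 to -0.09 (limma adjusted p = 0.0670).

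Both passed when the filter was raised to a mean of 5 TPM, where 21.3% of genes were called, with an adjusted p of 0.0324 for TOP1 and 0.0420 for TOP3B. After GC correction neither passed (limma adjusted p = 0.0804 for TOP1 and 0.151 for TOP3B). Of the 16 other settings of the fit, TOP1 passed in 3 and TOP3B in 2. The antisense rows that overlap them were low. PPM1F-AS1, which covers 90.7% of the exon bases of TOP3B on the opposite strand, was at 0.8 and 0.68 TPM in oeRNH1 libraries, against 0.73 and 0.74 TPM in oeFlag libraries. PLCG1-AS1, which shares 2.41% of the exon bases of TOP1, was at 0.63 and 0.87 TPM in oeRNH1 libraries, against 0.57 and 1.03 TPM in oeFlag libraries.

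SAMHD1 was at 30.19 and 28.01 TPM in oeRNH1 libraries, against 26.19 and 30.07 TPM in oeFlag libraries. Its groups overlapped, and its log2 fold change of 0.05 had an interval of -0.17 to 0.27 (limma adjusted p = 0.747). TLDC2, on the opposite strand over 10.3% of its exon bases, stayed between 0.7 and 1.65 TPM. Of the other genes tied to Aicardi-Goutières syndrome, the RNA editing enzyme ADAR (log2 -0.00 ± 0.06) and the histone pre-mRNA factor LSM11 (0.01 ± 0.08) did not pass. The exonuclease TREX1 and the RNA sensor IFIH1 were below the level tested.

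GC content moved with the change over all tested genes. The median log2 fold change was 0.08 for genes whose longest transcript had 35% to 40% GC and -0.11 for those with 60% to 65%. RTEL1 (62.5% GC) and PIF1 (61.6%) lay at the GC-rich end, where tested genes within 1 percentage point had medians of -0.10 and -0.09. Relative to those medians RTEL1 was lower by 0.51 and PIF1 by 0.49, and after a spline correction for GC in each library neither passed (limma adjusted p = 0.0523 and 0.0620). After that correction 10.1% of genes were called, and of the enzymes only RNASEH2C (56.4% GC) kept its call, at 0.44 ± 0.07 (SE, limma adjusted p = 0.0228). RNASEH2C was also the 1 enzyme called of 9 after correction for GC, transcript length and gene span (9.50% of genes called), and after GC correction with a replicate block (9.10% of genes called). The log2 fold changes of RNASEH1, RNASEH2A and RNASEH2B after correction were -0.11, -0.09 and -0.23, and those of TOP1, TOP3B and SAMHD1 were 0.15, -0.20 and 0.01.

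**Figure D3:**
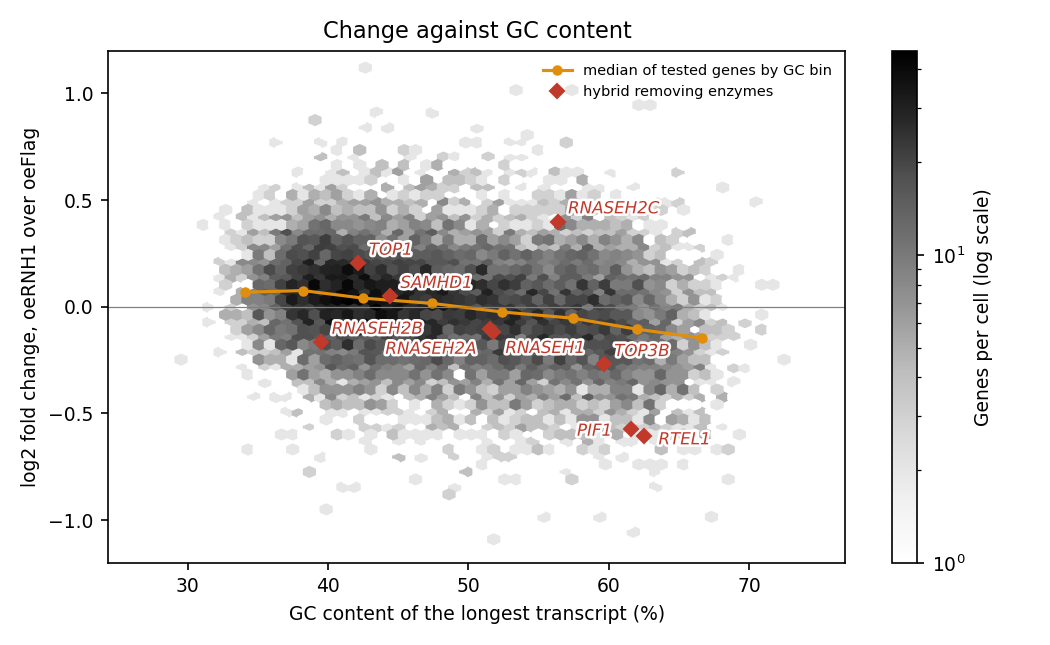
Log2 fold change (oeRNH1 over oeFlag) of tested genes against the GC content of the longest transcript, with darker cells holding more genes, the median per GC bin in orange and the enzymes as red diamonds. Genes beyond a size of 1.2 are not drawn. The median falls below 0 at high GC, and RTEL1 and PIF1 lie well below it, while RNASEH2C lies above it.

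Other genes of the pathway were taken by list. The share called was 10.5% for helicases, 10% for topoisomerases and partners and 9.09% for packaging genes, against 11.8% of all tested genes. It was 42.9% for repair genes and 41.7% for deoxynucleotide supply genes, in lists chosen with earlier results of these data known. Of 19 other helicases linked to hybrids or G-quadruplexes, 1 was higher, 1 was lower and 17 had no call, with a median log2 fold change of 0.00. DDX11, a helicase of the replication fork, fell by 0.29 (SE 0.05, limma adjusted p = 0.0267).

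RECQL5, which binds RNA polymerase II, was at 18.08 and 23.79 TPM in oeRNH1 libraries, against 28.07 and 33.53 TPM in oeFlag libraries, and did not pass (limma adjusted p = 0.0639). ATRX, a chromatin remodeller, was at 42.31 and 42.32 TPM in oeRNH1 libraries, against 95.91 and 51.85 TPM in oeFlag libraries. The oeFlag libraries of ATRX differed from each other more than the lower of them did from the oeRNH1 group (limma adjusted p = 0.117). DHX9, DDX5, DDX17 and AQR, which also act on hybrids or structured RNA, had log2 fold changes of -0.01 to 0.08.

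Among 10 other topoisomerases and partners, limma called 0 higher and 1 lower and left 9 without a call, with a median log2 fold change of 0.03. The 1 that fell was TOP1MT, the mitochondrial counterpart of TOP1, at 17.03 and 15.35 TPM in oeRNH1 libraries, against 22.84 and 23.67 TPM in oeFlag libraries (log2 -0.50 ± 0.08, SE, limma adjusted p = 0.0243). TOP3A, the paralog of TOP3B, and RMI1, its partner, were at log2 0.38 ± 0.12 and 0.19 ± 0.08, and TDP2, which repairs trapped TOP2, at 0.15 ± 0.05. None of these passed (limma adjusted p of 0.0890 to 0.148). TDRD3, the partner of TOP3B, was at -0.17 ± 0.09.

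Of 11 genes that package or export nascent RNA, 1 rose, 0 fell and 10 had no call, with a median of 0.02. The mRNA export receptor NXF1 was at 141.77 and 136.53 TPM in oeRNH1 libraries, against 83.78 and 94.15 TPM in oeFlag libraries. It rose by 0.64 ± 0.07 (SE, limma adjusted p = 0.00990). The THO complex subunits THOC6, THOC3 and THOC1 did not pass, at -0.15 ± 0.07, -0.15 ± 0.07 and 0.10 ± 0.07.

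Genes that complete repair after RNase H2 has cut at a ribonucleotide moved in both directions. Of 14 tested, 3 were higher, 3 lower and 8 not called, with a median of 0.11. The flap nuclease FEN1 rose by 0.31 ± 0.05, the sliding clamp PCNA by 0.29 ± 0.04 and the clamp loader subunit RFC5 by 0.24 ± 0.04 (limma adjusted p of 0.0146 to 0.0300). The ligase LIG1 fell to 28.4 ± 1.85 TPM in oeRNH1 libraries, against 42.9 ± 1.55 TPM in oeFlag libraries (log2 -0.58 ± 0.07, limma adjusted p = 0.0140). The polymerase delta subunits POLD2 and POLD1 fell by 0.44 and 0.28 (limma adjusted p = 0.0165 and 0.0370), and POLD1 lost its call after GC correction (log2 -0.15, adjusted p = 0.155).

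Of 12 genes that supply the deoxynucleotides SAMHD1 breaks down, 4 rose, 1 fell and 7 had no call, with a median of 0.16. Thymidine kinase TK1 rose by 0.41 ± 0.07, the ribonucleotide reductase subunits RRM2B and RRM1 by 0.31 ± 0.07 and 0.20 ± 0.04, and thymidylate synthase TYMS by 0.26 ± 0.06 (limma adjusted p of 0.0221 to 0.0484). The kinase NME1 fell by 0.20 (SE 0.04, limma adjusted p = 0.0380). After GC correction RRM1, RRM2B and TYMS missed the threshold, at log2 0.15, 0.23 and 0.26 (limma adjusted p of 0.0596, 0.0824 and 0.0557).

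**Figure D4:**
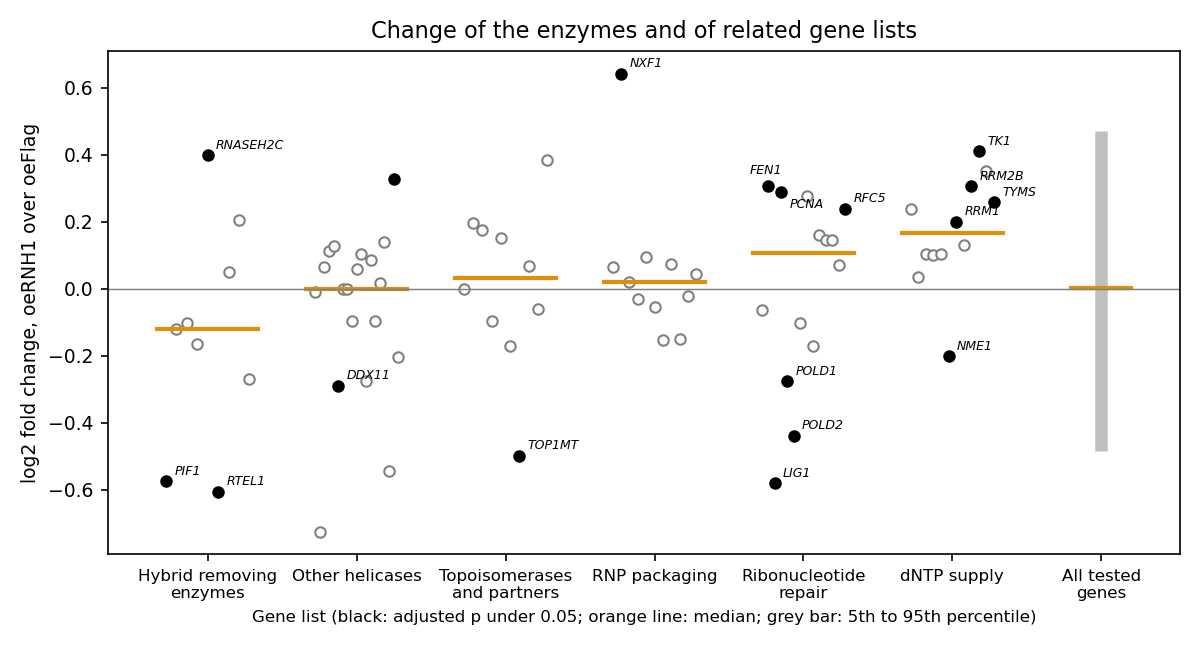
Log2 fold change (oeRNH1 over oeFlag) of the 9 enzymes and of 5 related gene lists, with a point per gene (black where the adjusted p is under 0.05, with names for those described), the median in orange, and the 5th to 95th percentile of all tested genes as a grey bar from -0.48 to 0.47. RTEL1, PIF1, LIG1, TOP1MT and NXF1 lie outside that range among the called genes.

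Patterns over the 4 libraries were compared by the Euclidean distance between log2(TPM + 1) values centred on each gene, among 76 candidates from the enzymes and lists. The nearest to RNASEH2C were FEN1 and TK1, at distances of 0.11 and 0.15. RTEL1 was nearest to LIG1 and POLD2, at 0.08 and 0.19. PIF1 was nearest to RTEL1 and POLD2, at 0.19 and 0.21. The 4 libraries in 2 groups are few for such a comparison. Genes of like fold change tend to be close by construction, so the distances add little to the fold changes.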

How the data were processed

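The authors deposited 1 table of TPM with a column per library and no counts. STAR and hg38 are named in the submitters' processing notes. The program that made the TPM values, its annotation, the versions and whether strand was used were not given in the sources used here. Per the labels' protocols, libraries were made from TRIzol-extracted RNA with a VAHTS mRNA-seq kit.

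The 15651 genes whose mean reached 1 TPM were compared on log2(TPM + 1) with limma 3.58.1 in R 4.3.3, with a group term, variances moderated along an intensity trend, two-sided tests and Benjamini-Hochberg adjustment over all tested genes. The added 1 understates changes of low genes. The procedure was tested on simulated data. Gene models came from GENCODE release 29 and covered 97.9% of tested genes, and GC content is that of the longest transcript. Spline corrections (4 degrees of freedom) were fitted to each library's deviations from gene means. Figures used matplotlib 3.10.9 in Python 3.11.15.

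Members and lists were chosen with earlier results of these data known. Named were the members, rows overlapping or beside them, and from each list the called genes or, where fewer than 4 were called, those of smallest p up to 4, plus further examples chosen after their values were seen. A few items that this rule would name are not reported here.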

Additional observations from a re-analysis of the deposited data

How the results depend on the processing

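The fold changes of the enzymes kept their direction in all 16 other settings of the limma fit except for SAMHD1, which was at -0.0027 without oeRNH1 replicate 1 and at -0.0467 without oeFlag replicate 1, and ranged from -0.0467 to 0.146 when 1 library was left out. The log2 fold change of RNASEH2B was -0.32 without oeRNH1 replicate 1 and -0.01 without oeRNH1 replicate 2. That of RNASEH2A was -0.16 without oeFlag replicate 1 and -0.05 without oeFlag replicate 2. Over the 16 settings RTEL1 ranged from -0.72 to -0.41 and PIF1 from -0.69 to -0.44. TOP1 ranged from 0.13 to 0.25, TOP3B from -0.34 to -0.20 and RNASEH2C from 0.34 to 0.46. RNASEH2C was called in 10 of the 16, and RTEL1 and PIF1 in 7 each. RNASEH1 was not called in any, with log2 fold changes of -0.14 to -0.10. With no filter on low values, limma called 0 enzymes, 0 genes in each of the 5 lists and 0 genes in all, against 5 enzymes, 6 helicases, 4 topoisomerases and partners, 1 packaging, 10 repair and 8 dNTP genes and 5655 of all genes at an unadjusted p under 0.05. With no intensity trend it called 0 enzymes, 0 in each list and 1 gene in all, against 5, 3, 2, 1, 7, 6 and 4337 at an unadjusted p under 0.05. Leaving out 1 library, the calls ranged from 0 to 0 enzymes, 0 to 1 helicases, 0 in each of the other 4 lists and 0 to 15 genes in all, against 4 to 5 enzymes and 3367 to 4035 genes at an unadjusted p under 0.05. For the lists the unadjusted counts were then 2 to 6 helicases, 1 to 4 topoisomerases and partners, 1 to 2 packaging, 6 to 8 repair and 5 to 8 dNTP genes. In other settings, 5 enzymes were called with the filter raised to 5 TPM. Calls rose there for genes in general, to 21.3% of those tested, against 11.8% in the main fit. The count was 1 enzyme after GC correction and after GC, length and span correction, where 10.1% and 9.50% of all genes were called. After GC correction 1 helicase and 2 dNTP genes were called, and 2 dNTP genes after GC, length and span correction. Of the dNTP genes 3 were called with quantile normalization and 3 with median-of-ratios scaling, beside 1796 and 1867 of all 15651 genes. The cause of these differences was not tested.

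Same-numbered libraries deviated together little (correlation 0.0307 over tested genes), and the labels give them only a shared number. With the replicate block 5 enzymes, 4 helicases and 2 topoisomerases and partners were called, and 2442 genes in all, 15.6% of those tested. With the replicate block and GC correction together the calls were 1 enzyme, 1 helicase, 2 topoisomerases and partners and 2 dNTP genes, beside 9.10% of all genes. Without 1 library, the difference in the log2 ratio of RNASEH2A to RNASEH2B ranged from -0.11 to 0.24 beside 0.06 in all libraries. The difference in the ratio of RNASEH2C to the other subunits stayed between 0.41 and 0.68. Replication is 2 libraries per group, and the depth behind each TPM value is unknown.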
